A study of Mus musculus with 10 samples.

Results

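The collagen genes of mouse muscle were read on Affymetrix Mouse Gene 1.0 ST arrays, as all genes whose annotated symbol has the form of a collagen alpha chain (Col, a type number, a and a chain number). The rule found 44 collagen genes among the 19938 genes that a probe set named alone, and used no measured value. They were grouped as 11 fibrillar, 9 basement membrane, 9 network, 8 FACIT (fibril-associated collagens with interrupted triple helices) and 3 junction collagens, with 4 others. The study asked about the fast fiber program and the long non-coding RNA linc-MYH, and the collagens were not its subject.

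The 10 arrays came from mice labelled C56BL6N and 8 weeks old, in 2 muscles. In tibialis anterior (TA), muscle was electroporated with 10 μg of plasmid at 8 weeks and sampled 2 weeks later, by dissecting the fibers that showed the GFP of the plasmid: 2 arrays held TA with an shRNA vector against linc-MYH (shlincMYH) and 2 held TA with the control vector. By the methods the control plasmid went into the opposite leg, so TA arrays of both groups may come from the same mice, but the labels do not say which arrays share one. In gastrocnemius (GAS), 3 arrays held muscle with a conditional gene knockout (KO) and 3 held control muscle labelled wild type, with no electroporation. In KO mice the floxed gene is cut by a Cre under the human skeletal actin promoter, which is active in muscle fibers and not in the fibroblasts, endothelium or Schwann cells between them. The labels do not say whether the arrays of a group came from separate animals, so p-values measure only the spread between these arrays.

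Collagens are triple helices of 3 alpha chains, so most types need several genes in step. In skeletal muscle, fibroblasts make most of the fibrillar collagens I and III, and type VI collagen, which links the matrix to the fiber surface. Type IV collagen forms the sheet of the basal lamina around each fiber and vessel, type XXII marks the myotendinous junction, and types XIII and XXV are transmembrane collagens, type XIII being concentrated at the neuromuscular junction. FACIT collagens such as XII and XIV sit on the surface of fibrils.

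Several members lie side by side in the genome. RefSeq (GRCm38.p6) placed 8 pairs of members next to each other, among them Col3a1 and Col5a2 on chromosome 1, Col6a2 and Col6a1 on chromosome 10 and Col4a1 and Col4a2 on chromosome 8. Promoters in the same build were at hand for 35 of the 44 members. Over the 250 bases before the start, read on both strands, the Sp1 box GGGCGG stood in 21 of the 35 (60.0%, against 35.4% of 27025 genes), the box CCAAT in 13 (37.1%, against 37.5%), and TATAAA in 5 (14.3%, against 14.3%). The 120 bases before the start are shown for Col1a2 (chr6:4505498-4505617, plus strand), Col3a1 (chr1:45311418-45311537, plus strand) and Col8a1 (chr16:57754738-57754857, minus strand), since the first 2 had among the largest differences in KO muscle and the last was called there. Capitals mark CCAAT in Col1a2, TATAAA in Col3a1 and GGGCGG, read on the opposite strand, in Col8a1.
Col1a2: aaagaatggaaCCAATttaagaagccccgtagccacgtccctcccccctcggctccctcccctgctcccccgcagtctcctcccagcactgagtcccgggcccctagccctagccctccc
Col3a1: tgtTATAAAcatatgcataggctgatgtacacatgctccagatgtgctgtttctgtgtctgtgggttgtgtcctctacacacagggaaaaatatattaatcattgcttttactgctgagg
Col8a1: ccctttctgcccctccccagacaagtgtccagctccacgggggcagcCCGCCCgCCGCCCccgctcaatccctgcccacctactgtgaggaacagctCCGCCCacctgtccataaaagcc

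Values are log2 signals after RMA, which corrects background, equalises arrays and summarises each probe set. TA and GAS arrays had different overall levels (array medians of 5.09 to 5.14 and 6.60 to 6.67), so levels were compared only within a muscle, and only within a gene, since probe sets differ in brightness. The targeted genes were not analysed here, so the labels have no check from the targeted gene. The 6 fiber markers (Acta1, Ckm, Mb, Ttn, Myh4 and Tnnt3) were each at or above the 99.6th percentile of all genes in control TA and the 99.7th in control GAS. They mark skeletal muscle, but cannot tell TA from GAS or check a group label. In GAS, KO replicate 3 stood apart for the collagens, as given below. Several class counts and medians that rest on it, but not all, are given with and without it.

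In KO gastrocnemius, 2 collagens passed the test and both rose: Col8a1, a short-chain network collagen, by 1.51-fold, and Col14a1, a FACIT collagen of the fibril surface, by 1.47-fold (limma, Benjamini-Hochberg over 19938 genes, threshold 0.05). No collagen fell, and the methods' t-test with the same adjustment called none. Over all genes 1.74% were called in GAS and 0.908% were called higher. At an unadjusted p under 0.05 there were 13 collagens higher and 0 lower, against 8.44% of all genes higher and 6.50% lower. Of the 44 members 32 had a difference above 0, and the median log2 difference was 0.07, against 0.01 over all genes. The KO and control arrays did not overlap for 10 members, all higher in KO, against 11.0% of all genes with no overlap and higher and 9.85% with no overlap and lower.

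**Figure D1:**
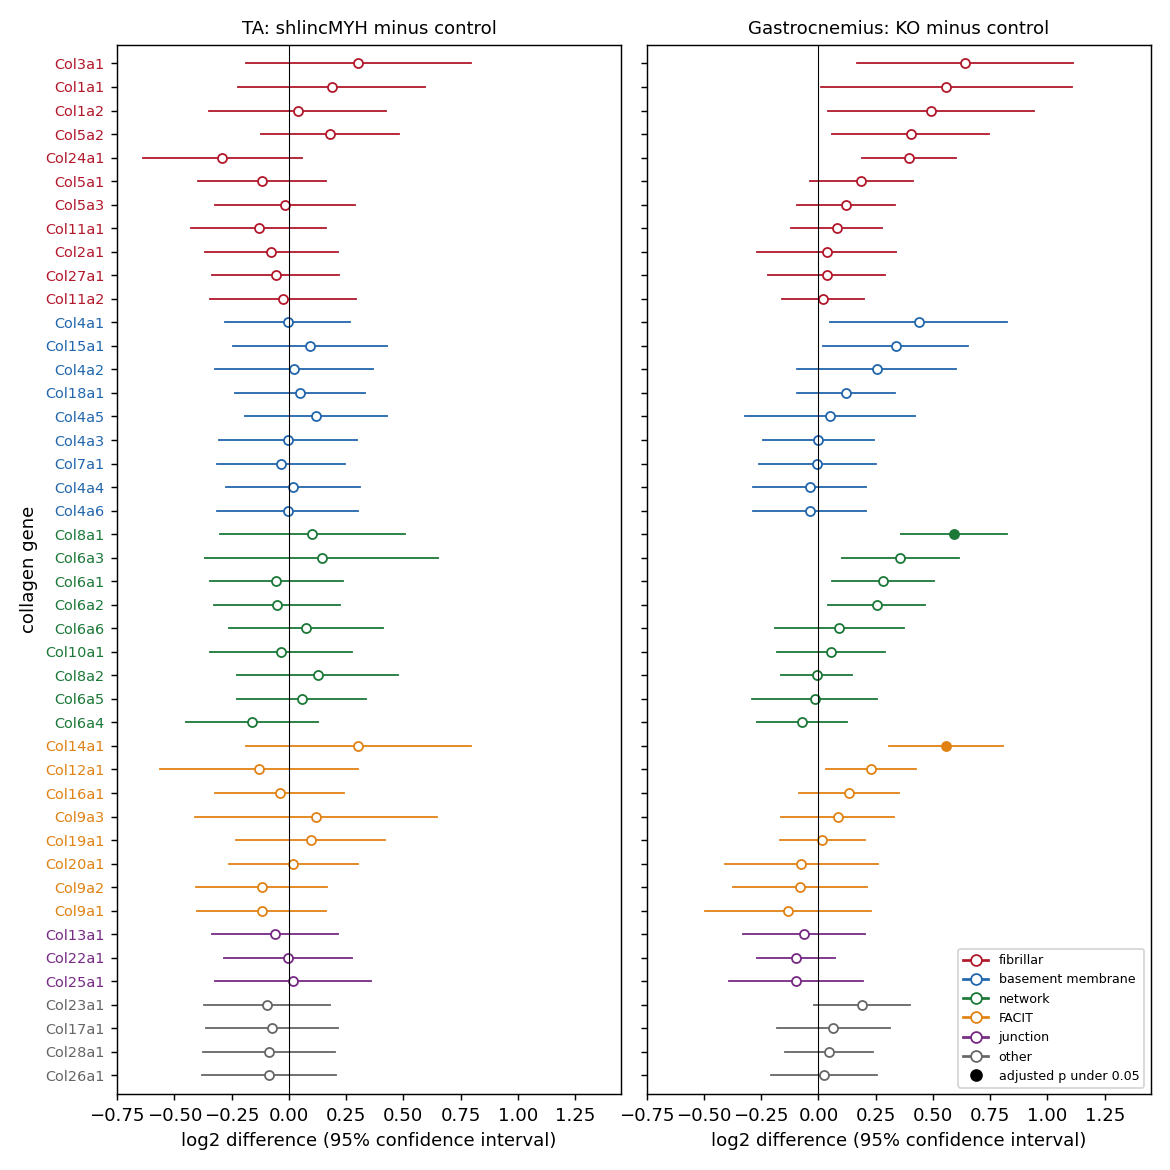
Log2 difference (x axis) of each of the 44 collagen genes (y axis, ordered by class and by the GAS difference) in TA with shlincMYH (left) and in KO gastrocnemius (right), each against its own controls. Points are limma estimates, bars their 95% confidence intervals, and filled points (Col8a1 and Col14a1, right) passed an adjusted p of 0.05.

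Col8a1 signal was 7.86, 7.72 and 7.83 in control replicates 1 to 3 and 8.61, 8.27 and 8.31 in KO replicates 1 to 3. All 3 KO arrays lay above all controls, with the highest in replicate 1. The log2 difference was 0.59 (SE 0.10, limma adjusted p = 0.0333). Its partner chain in type VIII collagen, Col8a2, had a difference of -0.01 (95% confidence interval -0.16 to 0.15).

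Col14a1 signal was 8.36, 8.15 and 8.40 in the controls and 8.98, 8.66 and 8.94 in KO. The groups were apart, and replicates 1 and 3 of KO were highest. This was a log2 difference of 0.56 (SE 0.11, limma adjusted p = 0.0497). Both estimates held their size when any 1 array was left out (0.49 to 0.65 for Col8a1 and 0.48 to 0.66 for Col14a1), but the calls did not: Col8a1 was still called only without KO replicate 3 and lost its call without any of the other 5 arrays (adjusted p of 0.0705 to 0.145), and Col14a1 lost its call without each of the 6 (0.058 to 0.175). With each array centred on its median, Col8a1 was still called and Col14a1 was not (adjusted p = 0.0541).

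The fibrillar collagens, which form the cables of the interstitial matrix, had the largest differences as a class. All 11 had a difference above 0 in KO, with a median of 0.19, and none passed the adjusted test. Without KO replicate 3 there were 8 above 0, with a median of 0.09, and Col2a1, Col27a1 and Col11a2 were below it. The same 3 were below 0 when each array was centred on its median. At an unadjusted p under 0.05 there were 5 higher (Col1a1, Col1a2, Col3a1, Col5a2 and Col24a1), against 8.44% of all genes. Without KO replicate 3 there were 2 higher at that p, against 11.1% of all genes. Levels of the class in control GAS ran from the 52.4th percentile of all genes (Col24a1) to the 96.9th (Col1a1). Col2a1, Col11a1, Col11a2 and Col27a1 lay at the 56.9th to 63.9th. Whether the dimmer members were expressed was not tested.

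Col3a1, the single chain of type III collagen, had signals of 8.96, 8.93 and 9.66 in the controls and 9.70, 9.67 and 10.10 in KO. The groups did not overlap, but control replicate 3 came just under the lowest KO array. At 0.64 (SE 0.20, limma adjusted p = 0.19) the log2 difference was the largest of the 44 members.

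For type I collagen, the main fibril protein of muscle connective tissue, Col1a1 signals were 10.73, 10.98 and 11.62 in the controls and 11.38, 11.59 and 12.02 in KO. Col1a2 signals were 10.32, 10.45 and 11.03 in the controls and 10.87, 11.03 and 11.37 in KO. The groups overlapped for both chains, since control replicate 3 lay above KO replicate 1. The log2 differences were 0.56 for Col1a1 (SE 0.24, limma adjusted p = 0.324) and 0.49 for Col1a2 (SE 0.19, limma adjusted p = 0.289), so the 2 chains differed by a like amount and neither passed the test.

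Type V collagen is buried inside type I fibrils. Col5a2 signals were 7.18, 7.13 and 7.63 in the controls and 7.68, 7.55 and 7.92 in KO. Col5a1 signals were 7.65, 7.65 and 7.76 in the controls and 7.76, 7.78 and 8.08 in KO. Col5a2 overlapped between the groups and Col5a1 was barely apart, with most of its distance in KO replicate 3. The log2 difference was 0.40 for Col5a2 (SE 0.15, limma adjusted p = 0.253), and 0.19 for Col5a1 (SE 0.10, limma adjusted p = 0.437), which was 0.09 without KO replicate 3.

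Col24a1, a fibrillar collagen known from bone and named here after its values were seen, had signals of 7.04, 7.27 and 7.08 in the controls and 7.52, 7.42 and 7.63 in KO. The groups were apart and no control array stood near the KO arrays. Its log2 difference was 0.39 (SE 0.09, limma adjusted p = 0.0782). The other 5 fibrillar genes (Col5a3, Col11a1, Col2a1, Col27a1 and Col11a2) had differences of 0.02 to 0.12, and their groups overlapped.

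**Figure D2:**
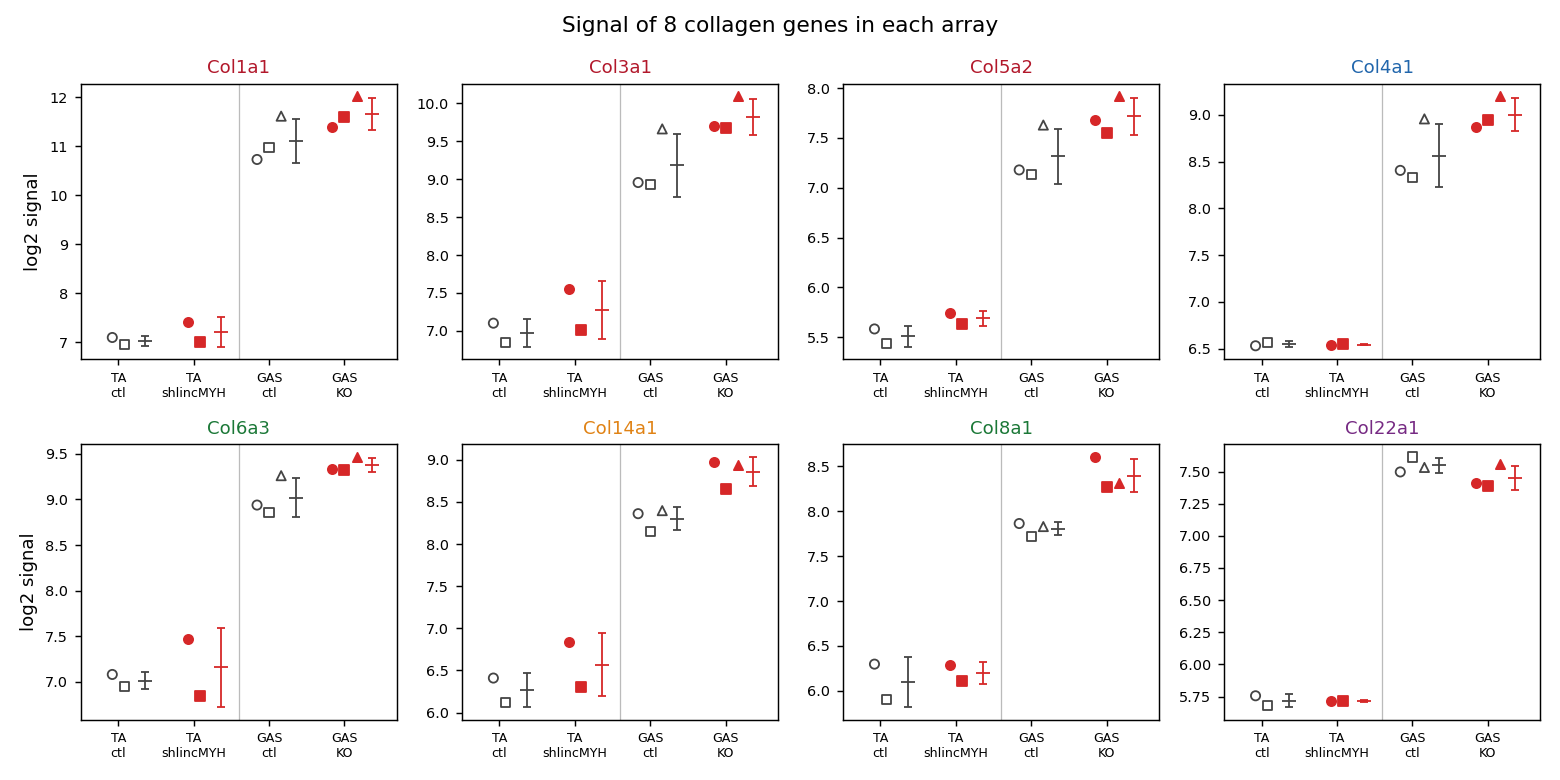
Log2 signal (y axis) of 8 collagen genes in each array, by group (x axis). Open symbols are controls, filled symbols are shlincMYH or KO, circles, squares and triangles are replicates 1, 2 and 3, and the bar beside each group is its mean with SD; control replicate 3 of GAS lies near the KO arrays for Col1a1, Col3a1, Col5a2 and Col4a1, and with the other controls for Col14a1 and Col8a1.

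Among the 9 basement membrane collagens no gene passed the adjusted test, and 2 had an unadjusted p under 0.05, Col4a1 and Col15a1, both higher. Without KO replicate 3 there were 0 at that p, against 11.1% of all genes higher. Col4a1 signals were 8.41, 8.33 and 8.96 in the controls and 8.87, 8.94 and 9.20 in KO. Its partner chain and neighbour Col4a2 had 8.43, 8.33 and 8.88 in the controls and 8.69, 8.72 and 8.99 in KO. The groups overlapped for both, because control replicate 3 was above KO replicates 1 and 2. The log2 differences were 0.44 for Col4a1 (SE 0.17, limma adjusted p = 0.27) and 0.25 for Col4a2 (SE 0.15, limma adjusted p = 0.514).

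Col15a1, a proteoglycan collagen of the muscle and vessel basement membrane, had signals of 8.76, 8.70 and 9.16 in the controls and 9.14, 9.09 and 9.40 in KO. Control replicate 3 again lay among the KO arrays. Its log2 difference was 0.34 (SE 0.14, limma adjusted p = 0.301). The minor type IV chains Col4a3 to Col4a6, Col7a1 of the anchoring fibrils and Col18a1, the source of endostatin, had differences of -0.04 to 0.12, all with overlapping groups.

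In the network class Col8a1 was called, and the 3 chains of type VI collagen were each apart between the groups without passing the adjusted test. Col6a1 signals were 9.17, 9.12 and 9.40 in the controls and 9.40, 9.51 and 9.62 in KO. Col6a2 signals were 9.23, 9.25 and 9.47 in the controls and 9.54, 9.48 and 9.70 in KO. Col6a3 signals were 8.94, 8.86 and 9.26 in the controls and 9.34, 9.33 and 9.47 in KO. All 3 chains had their highest control in replicate 3, just under the lowest KO array. The log2 differences were 0.28 for Col6a1 (SE 0.10, limma adjusted p = 0.223), 0.26 for Col6a2 (SE 0.09, limma adjusted p = 0.241) and 0.36 for Col6a3 (SE 0.11, limma adjusted p = 0.176).

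The other chains of type VI collagen did not go with them. Col6a4, Col6a5 and Col6a6, which can take the place of Col6a3 in the trimer, had differences of -0.07 to 0.09 with overlapping groups. A second, dimmer probe set of Col6a5, not used for the counts, read 6.05, 5.94 and 5.99 in the controls and 6.30, 6.22 and 6.16 in KO, so the 2 probe sets of that gene disagreed. Col10a1, a cartilage collagen, had a difference of 0.06.

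Of the 8 FACIT collagens Col14a1 was called and Col12a1 was apart between the groups. Col12a1, found in tendon and muscle matrix, had signals of 8.22, 8.42 and 8.42 in the controls and 8.49, 8.68 and 8.57 in KO. It was 1 of 3 members with the highest array in KO but not in replicate 3, with Col8a1 and Col14a1. The log2 difference was 0.23 (SE 0.09, limma adjusted p = 0.259). Col16a1, Col19a1, Col20a1 and the 3 chains of type IX collagen had differences of -0.13 to 0.13, with overlapping groups. Col19a1 had a difference of 0.02 (95% confidence interval -0.17 to 0.20).

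The 3 junction collagens were below 0, and none was apart between the groups. Col22a1, of the myotendinous junction, had signals of 7.50, 7.61 and 7.53 in the controls and 7.41, 7.38 and 7.56 in KO. Col13a1, of the neuromuscular junction, had signals of 7.07, 7.30 and 7.02 in the controls and 6.90, 7.04 and 7.27 in KO. Col25a1, a transmembrane collagen of muscle needed for motor innervation, had signals of 6.66, 6.79 and 6.66 in the controls and 6.55, 6.38 and 6.89 in KO. For each of the 3, replicate 3 was the highest KO array and lay among or above the controls. The log2 differences were -0.10 (95% confidence interval -0.27 to 0.07), -0.06 (-0.33 to 0.20) and -0.10 (-0.39 to 0.19), with limma adjusted p of 0.641, 0.883 and 0.823. Without KO replicate 3 they were -0.15, -0.16 and -0.24. The 4 remaining collagens, Col17a1, Col23a1, Col26a1 and Col28a1, had differences of 0.02 to 0.19, and Col23a1 was apart between the groups.

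**Figure D3:**
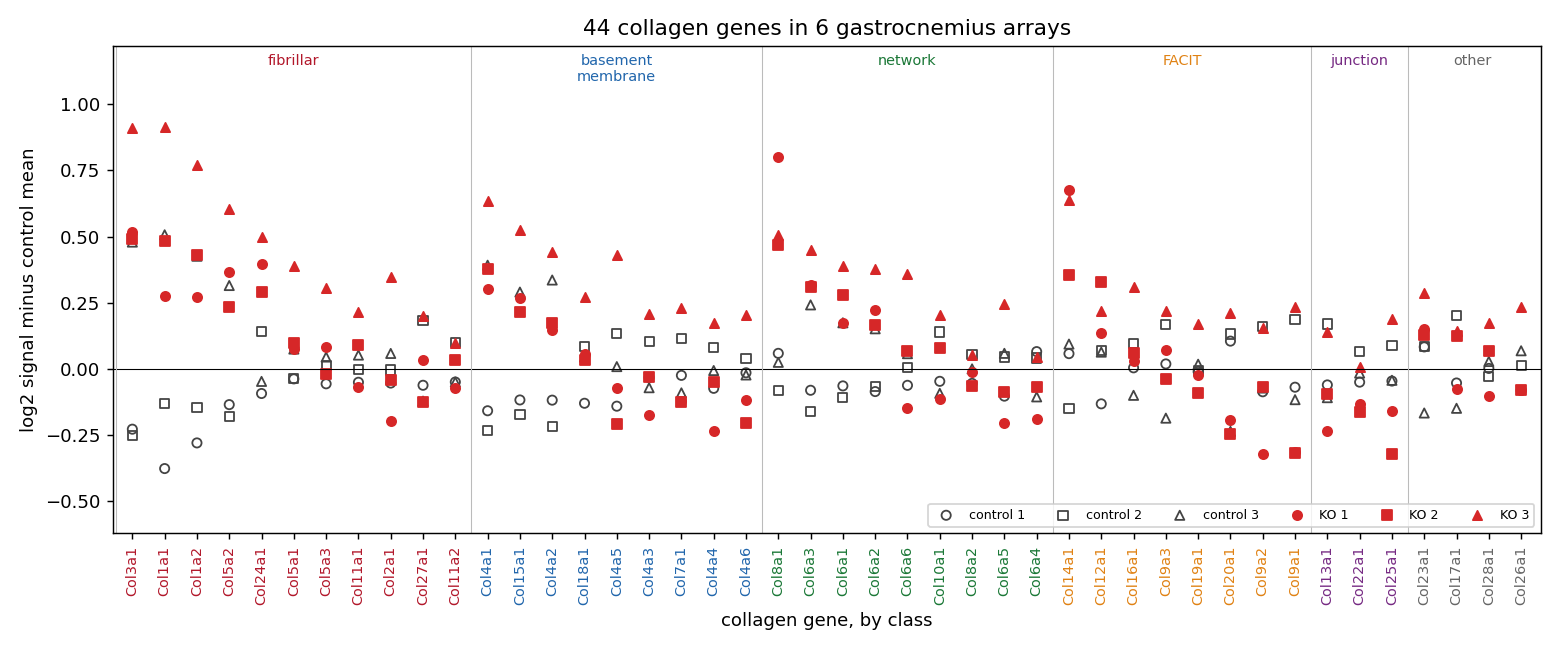
Log2 signal minus the control mean (y axis) of the 44 collagen genes (x axis, by class) in each gastrocnemius array. Open grey symbols are controls and filled red symbols KO, with circles, squares and triangles for replicates 1, 2 and 3; the red triangles (KO replicate 3) are highest for 34 of the 44 genes.

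One array carried much of the pattern. KO replicate 3 was the highest of the 6 GAS arrays for 34 of the 44 collagens, against 26.4% of all genes. Its median collagen lay 0.24 above the control mean, against -0.02 and 0.05 in replicates 1 and 2. The same array was high for dim genes: genes below the median level were 0.08 above their control mean there and genes above it were 0.02 below. The part of this shift in the collagen values was not tested, and collagens were not matched to other genes by level. KO replicate 3 was highest for 24 of 31 brighter collagens (77.4%, against 14.1% of brighter genes) and for 10 of 13 dimmer ones (76.9%, against 38.7% of dimmer genes). Without it the median over the 44 collagens was -0.0035, 22 members were above 0, 6 were higher and 2 lower at an unadjusted p under 0.05 (11.1% and 8.82% of all genes), and Col8a1 was the 1 collagen called, against 2.81% of all genes.

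Control replicate 3 was high for fewer genes, and for named ones. It lay at least 0.3 above the mean of controls 1 and 2 for 8 of 44 collagens (18.2%, against 3.19% of all genes), namely Col1a1, Col1a2, Col3a1, Col5a2, Col4a1, Col4a2, Col15a1 and Col6a3. The gap was 0.76 for Col1a1, 0.72 for Col3a1 and 0.59 for Col4a1, and 0.04 for Col8a1 and -0.07 for Col24a1. For each of the 8 genes this gap among the controls was larger than the difference between the groups, and for Col8a1 and Col24a1 it was smaller.

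**Figure D4:**
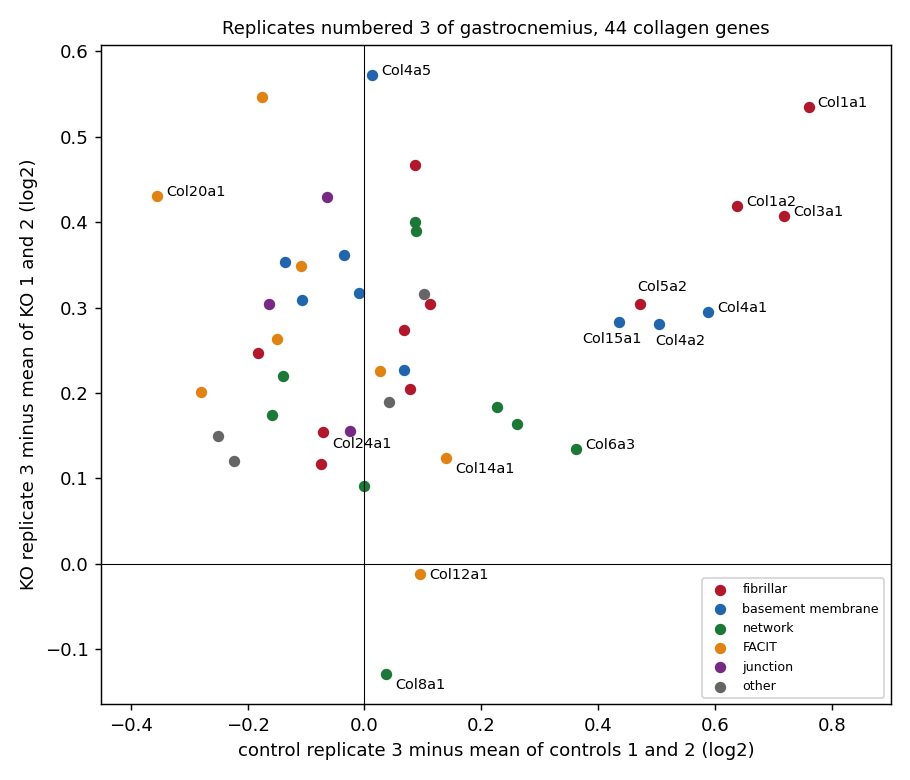
Gap of KO replicate 3 to the mean of KO replicates 1 and 2 (y axis, log2) against the gap of control replicate 3 to the mean of controls 1 and 2 (x axis, log2), with 1 point for each of the 44 collagen genes, coloured by class. The 8 genes to the right of 0.3 are those named in the text; 42 of 44 points lie above 0 on the y axis, Col8a1 and Col12a1 below it.

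With both arrays numbered 3 left out, a setting chosen after these values were seen, 4 collagens were called higher: Col3a1 at 0.74 (limma adjusted p = 0.0138), Col4a1 at 0.54 (0.0328), Col1a2 at 0.56 (0.0413) and Col6a3 at 0.43 (0.0456). Of all genes 2.38% were then called, and 1.54% were called higher. The collagen median in that setting was -0.03, with 19 of 44 above 0, and at an unadjusted p under 0.05 there were 14 higher and 3 lower, against 11.4% and 10.7% of all genes. Col8a1 and Col14a1 were then not called (0.0607 and 0.0855), at 0.65 and 0.56. Without control replicate 3 alone Col3a1 was the 1 collagen called, at 0.88 (0.0484), against 0.838% of all genes. The log2 difference of Col1a1 was then 0.81 (0.37 without control replicate 1). At an unadjusted p under 0.05 the collagens that were higher numbered 4, 5 and 14 when controls 1, 2 and 3 were left out in turn. Over all genes 6.46%, 5.69% and 7.67% were higher at that p in the same settings. The collagen median was 0.14 without KO replicate 1, 0.11 without replicate 2 and 0.13 without control replicate 2. Centring each array on its median moved the GAS median of all genes from 0.01 to -0.04 and that of the collagens from 0.07 to 0.02. It left 25 collagens above 0 and 7 higher at an unadjusted p under 0.05, against 5.33% of all genes.

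Markers of some other cell types were higher in KO arrays. Over all genes 8.44% were higher at an unadjusted p under 0.05, 0.908% were called higher, and 11.0% were higher with no overlap. Of 8 fibroblast markers, 2 of which (Dcn and Lum) are also fibril partners, 5 were higher at an unadjusted p under 0.05 and 1, Mfap5, was called (0.52, limma adjusted p = 0.0358). Their summed linear signal was 14902 to 15805 in control and 16875 to 17174 in KO arrays, so the groups were apart. Of 6 macrophage markers all were above 0, 5 were higher at an unadjusted p under 0.05 and 1, Mrc1, was called (0.77, limma adjusted p = 0.0139). Their sum was 2262 to 2841 in control and 3488 to 6033 in KO arrays. All 4 satellite cell markers were higher and apart, 3 at an unadjusted p under 0.05 and none called, with sums of 554 to 621 in control and 710 to 746 in KO arrays. Of 6 endothelial markers none had an unadjusted p under 0.05. Of 4 Schwann and perineurial markers 3 were above 0, 1 at an unadjusted p under 0.05. Their sums were 4974 to 5596 in control and 6307 to 6356 in KO arrays. All 5 adipocyte markers were above 0, none at an unadjusted p under 0.05. Of 6 tendon markers 5 were above 0, 1 at that p. Of 6 smooth muscle and pericyte markers 4 were below 0, 1 at that p, and all 6 fiber markers were below 0. The lowest signals of the fibroblast, macrophage and satellite cell lists were 8.12, 7.06 and 6.59 in control GAS arrays. Medians of the GAS arrays over all probe sets were 6.60 to 6.67. No background level was measured, so whether the dimmer markers stood above it is not known. The median macrophage marker was 1.13, 0.58 and 0.36 above the control mean in KO replicates 1 to 3. In the same order the median fibroblast marker was 0.29, 0.30 and 0.13 above it, and the median satellite cell marker 0.35, 0.36 and 0.34. The median collagen stood at -0.02, 0.05 and 0.24, and Col8a1 and Col14a1 were highest in replicate 1. In whole muscle, more cells of a type and more RNA per cell cannot be told apart. The part of these markers in the collagen values was not tested.

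Other genes that serve collagen were read from lists. Over all genes in GAS 8.44% were higher and 6.50% lower at an unadjusted p under 0.05, and 1.74% were called. Of 19 genes of collagen folding and modification none was called by limma, and at an unadjusted p under 0.05 there were 6 higher and 3 lower. The genes with the largest statistics were Mia3, which loads procollagen into transport carriers, at -0.37 (limma adjusted p = 0.0611), Crtap at 0.36 (0.0719) and Ppib at 0.39 (0.0955), both parts of the prolyl 3-hydroxylation complex, and Tmem38b at -0.27 (0.0941). The methods' t-test with the same adjustment called 0 genes of the matrix lists.

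Of 12 genes of procollagen cleavage and cross-linking, Pcolce, the enhancer of procollagen C-proteinase, was called higher. Its signals were 10.42, 10.52 and 10.53 in the controls and 10.83, 10.81 and 10.90 in KO, and the log2 difference was 0.35 (SE 0.07, limma adjusted p = 0.0473). The groups were apart by more than either spread. At an unadjusted p under 0.05 there were 5 genes higher and 0 lower, with Adamts14, an N-proteinase, at 0.30 (0.0874), Loxl1 at 0.41 (0.12) and Lox at 0.42 (0.23), both cross-linking oxidases.

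Of 23 fibril partners and matrix glycoproteins, none was called, 10 were higher and 0 lower at an unadjusted p under 0.05, and the list median was 0.20. Postn, periostin, had signals of 9.11, 8.60 and 9.68 in the controls and 10.52, 10.27 and 9.92 in KO, a log2 difference of 1.10 (SE 0.26, limma adjusted p = 0.0888). Unlike the collagens it was lowest, among the KO arrays, in replicate 3. Fn1, fibronectin, had a difference of 0.50 (limma adjusted p = 0.142) and Bgn, biglycan, of 0.35 (0.13). Of 16 basement membrane partners 5 were higher at an unadjusted p under 0.05 and none was called, with Lama4 at 0.36 (0.117), Hspg2 at 0.34 (0.118) and Pxdn, which cross-links type IV collagen, at 0.60 (0.237).

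Degradation, receptor and regulator genes held no call. Of 15 genes of collagen degradation and its inhibitors 5 were higher at an unadjusted p under 0.05 and none was called, with the membrane collagenase Mmp14 at 0.50 (limma adjusted p = 0.113) and Fap at 0.35 (0.121). Of 12 collagen receptors 4 were higher and none was called, with Itga7 at 0.48 (0.168). Of 20 genes of TGF-beta and matrix regulation 3 were higher and 1 lower, and none was called, with Ltbp1 at 0.32 (0.159).

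In TA with shlincMYH no collagen was called, against 0.0150% of all genes by limma. At an unadjusted p under 0.05 there were 0 of 44, against 8.65% of all genes. The methods' t-test with the same adjustment called none, with 1 lower at an unadjusted p under 0.05, against 3.93% of all genes. The median log2 difference of the 44 collagens was -0.0049, against -0.03 over all genes, with 19 above 0 and 25 below. The 2 arrays of each group did not overlap for 2 collagens that were higher and 10 that were lower, against 16.3% and 23.0% of all genes. With 2 arrays a group the test was coarse: the confidence intervals of the 44 members ran from -0.64 at the lowest to 0.80 at the highest.

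Type I and III collagens varied within the shlincMYH group more than between groups. Col1a1 signals were 7.10 and 6.95 in the controls and 7.43 and 7.00 in shlincMYH, and Col1a2 signals were 7.17 and 7.05 against 7.34 and 6.96. Col3a1 signals were 7.10 and 6.85 in the controls and 7.55 and 7.00 in shlincMYH. In all 3, shlincMYH replicate 1 was the highest of the 4 arrays and replicate 2 lay among or below the controls. The log2 differences were 0.19, 0.04 and 0.30, with limma adjusted p of 0.812, 0.975 and 0.732. If arrays of the same number came from 1 mouse, the differences within a mouse were 0.45 and 0.16 for Col3a1 and 0.32 and 0.05 for Col1a1, and 0.17 and -0.09 for Col1a2. With the replicate number as a block the adjusted p of Col3a1 was 0.557.

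The same array was high for Col6a3 and Col14a1. Col6a3 signals were 7.08 and 6.95 in the controls and 7.47 and 6.85 in shlincMYH, a difference of 0.14 (limma adjusted p = 0.896). Col14a1 signals were 6.41 and 6.12 in the controls and 6.83 and 6.31 in shlincMYH, a difference of 0.30 (95% confidence interval -0.19 to 0.79, limma adjusted p = 0.733). Both overlapped between the groups. Between arrays of the same number Col14a1 differed by 0.42 and 0.18, with an adjusted p of 0.546 by limma with the block, and Col6a3 by 0.38 and -0.10. Leaving out an array left 1 in its group, so only sizes are given. Without shlincMYH replicate 2 the differences were 0.58 for Col3a1, 0.57 for Col14a1 and 0.45 for Col6a3. Without shlincMYH replicate 1 they were 0.03, 0.04 and -0.16.

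Col5a2 was apart, at 5.58 and 5.44 in the controls and 5.75 and 5.63 in shlincMYH, with a difference of 0.18 (limma adjusted p = 0.74). Col5a1 was apart in the other direction, at 6.03 and 6.04 in the controls and 5.96 and 5.88 in shlincMYH, with a difference of -0.12 (limma adjusted p = 0.828). Neither passed the test. Col24a1 was the lowest member, at 5.40 and 5.70 in the controls and 5.31 and 5.21 in shlincMYH, with a difference of -0.29 (SE 0.14, limma adjusted p = 0.638).

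The basement membrane and type VI chains differed little in TA. Col4a1 signals were 6.53 and 6.57 in the controls and 6.54 and 6.55 in shlincMYH, a difference of -0.01 (95% confidence interval -0.28 to 0.27). Col4a2 signals were 5.85 and 6.16 against 6.02 and 6.04, and Col15a1 signals were 5.92 and 6.09 against 5.98 and 6.21. Both had overlapping groups, with differences of 0.02 and 0.09. Col6a1 signals were 6.83 and 6.89 against 6.87 and 6.74, and Col6a2 signals were 6.70 and 6.73 against 6.66 and 6.67, with differences of -0.05 and -0.05. Col8a1, called in GAS, had 6.30 and 5.90 against 6.29 and 6.11, a difference of 0.10 (95% confidence interval -0.30 to 0.51). Its 2 control arrays spanned both shlincMYH arrays.

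For the remaining named genes, Col12a1 had 5.14 and 4.94 in the controls and 5.13 and 4.69 in shlincMYH, a difference of -0.13. Of the junction collagens Col13a1 had 5.46 and 5.49 against 5.40 and 5.43, Col22a1 had 5.76 and 5.68 against 5.71 and 5.72, and Col25a1 had 4.75 and 4.99 against 4.80 and 4.98. Their differences of -0.06, -0.004 and 0.02 had limma adjusted p of 0.928 to 1.0. The other 26 members had differences of -0.16 to 0.13, and all 4 collagens outside the 5 classes were below 0.

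Vessel markers differed in the same TA arrays. All 6 endothelial markers were lower and apart in shlincMYH, against 23.0% of all genes. At an unadjusted p under 0.05 there were 5 lower, against 4.37% of all genes, and none was called by limma. The list median was -0.76. The summed linear signal of the 6 markers was 1207 to 1217 in control and 570 to 948 in shlincMYH arrays. Col4a1, Col4a2, Col15a1 and Col18a1, which vessels share, had differences of -0.01 to 0.09 in the same arrays. The part of vessel content in the collagen values was not tested. Among the matrix lists none was called in TA, and Timp2, an inhibitor of matrix metalloproteinases, had the smallest adjusted p, at 7.55 and 7.62 in the controls and 8.55 and 8.48 in shlincMYH (difference 0.92, limma adjusted p = 0.148).

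The 2 comparisons were then set against each other, over all 10 arrays. None of the 44 collagens differed between them by limma, against 0.145% of all genes called, and 3 were larger in KO at an unadjusted p under 0.05 (Col24a1, Col8a1 and Col6a1), against 7.10% of all genes. For Col24a1, below 0 in TA and above 0 in GAS, the difference of TA minus GAS was -0.69 (SE 0.16, limma adjusted p = 0.157). For Col8a1 it was -0.49 (SE 0.19, limma adjusted p = 0.343) and for Col6a1 -0.33 (SE 0.15, limma adjusted p = 0.406). All 11 fibrillar genes lay lower in TA than in GAS on this scale, with a median of -0.22. All 3 junction genes lay higher, with a median of 0.09. Of these 3, 1 lay higher without TA control replicate 1 (median -0.0031), and 2 or 3 with any other array left out. Without KO replicate 3 there were 10 of 11 fibrillar genes lower, with a median of -0.14 and Col2a1 above 0. The median over the 44 collagens went from -0.11 to -0.02, with 18 instead of 12 above 0. Over all genes the median was -0.03 with that array and -0.02 without it. The muscles, the treatments and the way samples were taken differ between the 2 comparisons and cannot be told apart. Of the genes in the matrix lists, Timp2 (0.84, limma adjusted p = 0.0193) and Tmem38b, an endoplasmic reticulum channel needed for collagen folding (1.10, limma adjusted p = 0.0396), were called, both larger in TA.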

How the data were processed

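Muscle RNA was amplified, labelled and hybridised to Affymetrix Mouse Gene 1.0 ST arrays. The authors deposited log2 values of 35556 probe sets after RMA, with Partek also in the processing notes. Neither versions nor whether both muscles were normalized together was stated in these sources. RMA hides a shift shared by all genes and compresses differences of dim ones. Labels and methods differ on labelling kit, RNA amount and age at sampling of TA. Every array's group and replicate number came from the labels. The 21789 probe sets with 1 gene symbol gave 19938 genes, the brightest standing for each (Col6a5 and Col6a6 had 2). Col21a1 was not analysed here, and the gene deleted in KO muscle is not reported here.

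TA and GAS arrays were fitted separately (limma 3.58.1, lmFit and eBayes, R 4.3.3). A gene was called at a Benjamini-Hochberg adjusted p under 0.05 over the whole table. A contrast of 4 groups over 10 arrays tested whether the comparisons differed. The code was tested on simulated data. Arrays of a group were distinct (SD of differences 0.164 to 0.274). Full values were given for 16 collagens listed by name and any other that was called, or apart between groups by at least 0.5 on the log2 scale; of each matrix list, up to 4 genes with the largest statistic. The members and lists were chosen with earlier results of these data known. Alternatives were quantile normalization, median centring, dim genes left out, the mean of probe sets, all arrays in 1 fit, a trend and robust prior, a replicate block, the t-test that the methods name for other data, and leaving out each array. Array numbers (2 or 3 a group) limit precision.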

Additional observations from a re-analysis of the deposited data

How the results depend on the processing

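In GAS the count of collagens called, 2 as reported, was 1 after quantile normalization, median centring, the mean of probe sets or all 10 arrays in 1 fit (Col8a1 each time), 0 by the methods' t-test, 0 to 1 with each array left out, and 4 without both arrays numbered 3. It was 3 of 31 with dim genes left out (Col24a1 added, limma adjusted p = 0.0497) and 3 with the replicate number as a block (Col3a1 added). Of the genes tested 4.86% and 0.933% were called in these settings, against 1.74% in the main fit. The share was 1.84% after quantile normalization, 1.95% after median centring and 1.70% with the mean of probe sets. It was 1.25% in 1 fit, 0.0201% by the t-test, 0.256% to 2.81% with each array left out and 2.38% without both arrays numbered 3. Deviations of same-numbered GAS arrays correlated at 0.216, -0.137 and 0.084, and those of different numbers at -0.36 to 0.29. Deviations within a group of 3 sum to 0, so these values cannot show whether the numbers mark a pairing. In TA same-numbered arrays correlated at 0.185, and with 2 arrays a group the crossed pairs must give -0.185, so this cannot show a pairing either. TA arrays of the same number may come from 2 legs of 1 mouse, which the labels do not say. The block called 0 collagens in TA. The block moved the genes called in GAS from 347 to 186. The GAS collagen median was 0.19 over the 31 collagens kept when dim genes were left out (0.1877), and -0.0035 to 0.1414 with each array left out. In TA 0 collagens were called under each alternative run, and in the test of the difference 0 were, where neither the t-test nor leaving out both arrays numbered 3 was run; the TA median was 0.03 after median centring (0.0268) and -0.0621 to -0.0116 with each array left out. Of 444 values of named genes under alternatives, 419 kept their side of the threshold, 19 lost a call (Col8a1 and Col14a1), 6 gained one and 0 reversed a call. The cause of these shifts was not tested. With 2 or 3 arrays a group, differences under about the size of the intervals given were not detectable.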
